A study of Mus musculus with 29 samples.

Results

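The fibronectin and elastic fibre genes are 9 genes taken by symbol from the series' gene count table: Fn1, Eln, Fbn1, Efemp2, Fbln5, Emilin1, Fbln1, Fbln2 and Efemp1. They are 9 of 23420 genes in the library files, and all 9 were among the 13765 genes that passed the filter on low counts. The measurements are read counts of polyadenylated RNA in 29 libraries from the ventricular apex of C57BL/6J mouse hearts, labelled 12 weeks old. Of these, 15 came from hearts that had undergone transverse aortic constriction (TAC) 4 weeks earlier, in which a band around the aorta loads the left ventricle with pressure: 3 with postnatal cardiac PKCdelta ablation, 4 with germline PKCepsilon knockout, 4 with the combined knockout and 4 wild-type. The other 14 were unstressed: 3 PKCdelta, 3 PKCepsilon, 4 combined and 4 wild-type. PKCδ and PKCε, the products of Prkcd and Prkce, are isoforms of protein kinase C. The labels name unstressed and not sham-operated hearts, so the effect of TAC includes that of the operation, and they do not say which promoter drives the postnatal PKCδ ablation or which alleles the combined knockout carries. The question the design sets for these genes is how pressure overload changed their transcripts and whether that change differed without PKCδ, PKCε or both.

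Fibronectin is a secreted glycoprotein that cells bind through integrins and assemble into fibrils, and it is among the early components of newly laid matrix in an injured heart. Elastic fibres have a core of crosslinked elastin inside a sheath of fibrillin microfibrils. Fibulins, the related EFEMP proteins and emilins link the core, the sheath and the cell surface, and help bring elastin together with the lysyl oxidases that crosslink it. In the heart these proteins are made mainly by fibroblasts and, in vessels and valves, by smooth muscle and valve cells. A bulk library cannot tell fewer cells of such a type from less RNA per cell.

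Each library held between 10523709 and 17314739 gene counts. Prkce averaged 9.46 ± 1.64 CPM (counts scaled to a common library size, ± SD over the libraries of a group) in PKCε-null TAC hearts and 35.1 ± 8.48 CPM in wild-type TAC hearts, and 8.41 ± 0.78 CPM in PKCε-null unstressed hearts against 49.6 ± 2.48 CPM in wild-type unstressed hearts. The library labelled combined knockout, TAC, replicate 2 held 31.5 CPM of Prkce against 8.21 to 11 CPM in the other 3 of that group, which goes against its label, and wild-type TAC replicate 2 held 24 CPM against 33.3 to 42.9 CPM. Prkcd averaged 18.9 CPM in PKCδ-ablated TAC hearts and 23.1 CPM in wild-type TAC hearts, and 17.6 CPM against 15.1 CPM in unstressed hearts; these counts cover the whole gene in tissue of many cell types and do not check the ablation. Of 23 libraries labelled male, 11 lacked transcripts of the Y chromosome, and 4 of 6 labelled female held them, so the sex label was not a term of the test. Xist, an RNA of the inactive X chromosome, was present in 19 libraries labelled male, and 12 libraries held both Xist and Y transcripts. The cause of finding both in 1 library was not tested. All libraries labelled female were TAC libraries. In 4 groups a pair of replicates was closer than the other pairs, with a chi-square per degree of freedom of 2.54 for PKCδ TAC 1 and 2, 2.63 for PKCε unstressed 1 and 2, 1.58 for combined unstressed 2 and 4, and 2.29 for wild-type unstressed 1 and 4. These values were above sampling noise, and each library was counted as 1; the labels do not say whether the libraries of such a pair share a heart. Rn45s, a ribosomal RNA precursor, took 4.51% to 8.59% of gene counts in TAC libraries and 9.9% to 14.1% in unstressed libraries; without it no call on TAC against unstressed changed for any of the 9 genes.

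After TAC most of these genes were higher in PKCε-null, combined and wild-type hearts, and 5 of 9 were in PKCδ-ablated hearts. In wild-type hearts 8 of the 9 genes rose after TAC, by 1.27-fold (Fbln5) to 3.04-fold (Eln), and Efemp1 did not pass the test. In PKCδ-ablated hearts 5 rose, and Fn1, Fbn1 and Fbln5 stood at 1.11-fold, 1.07-fold and 0.97-fold and did not pass. That count of 5 was 2 without PKCδ unstressed 3, 3 without PKCδ TAC 3 and 3 with 1 library of each close pair left out. In PKCε-null hearts 8 rose and Efemp1 fell, and in combined-knockout hearts 7 rose, Efemp1 fell and Emilin1 did not pass. A call means an adjusted p below 0.05 in edgeR's quasi-likelihood test with Benjamini-Hochberg adjustment over all genes tested. The share of all tested genes called in either direction was 26.9% in PKCδ-ablated, 28.9% in PKCε-null, 43.8% in combined and 35.7% in wild-type hearts. The share of all tested genes called higher after TAC was 12.9% in PKCδ-ablated, 14.5% in PKCε-null, 22.0% in combined and 17.8% in wild-type hearts, and the share called lower was 14.0%, 14.3%, 21.8% and 17.9% in the same order of genotypes. The median log2 fold change of the 9 genes was 0.35 in PKCδ-ablated, 0.74 in PKCε-null, 0.63 in combined and 1.03 in wild-type hearts, where that of all genes lay between -0.02 and 0.00. The ranges of TAC and unstressed libraries did not overlap for 5, 9, 8 and 8 of the 9 genes in that order, against 48.0%, 35.4%, 33.0% and 35.2% of all tested genes.

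**Figure D1:**
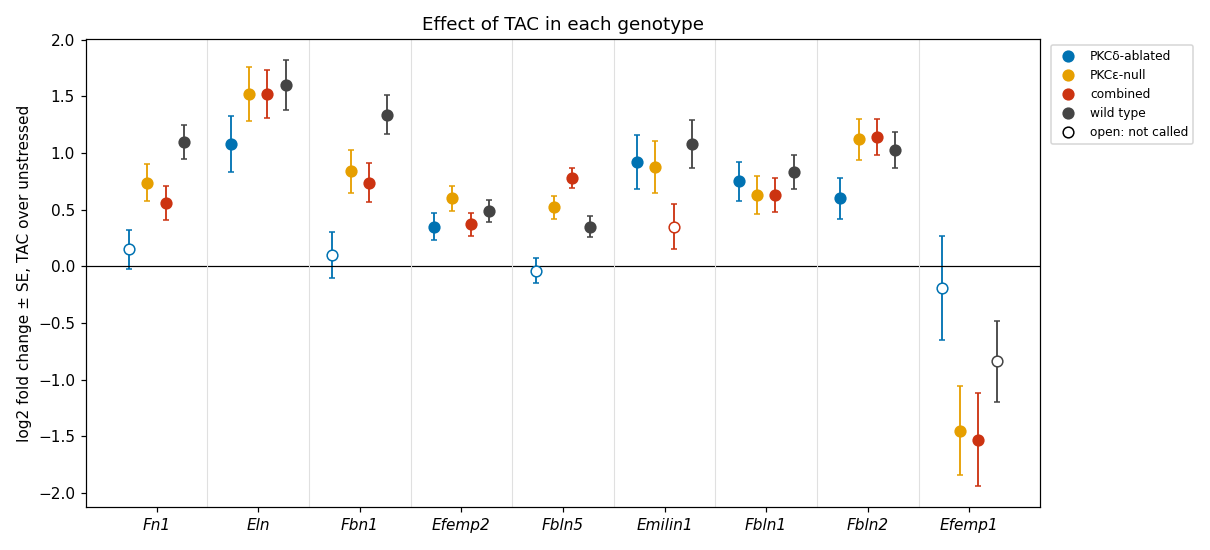
Effect of TAC on each of the 9 genes, by genotype. The vertical axis is the log2 fold change of TAC over unstressed hearts with its SE, filled points are called (adjusted p below 0.05) and open points are not. Fn1, Fbn1 and Fbln5 lie near 0 in PKCδ-ablated hearts, and Efemp1 lies below 0 in every genotype.

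Per kilobase of annotated exon, which allows levels of different genes to be set side by side, Fbln2 was the most abundant in every group, at 73.0 ± 20.9 CPM per kb in combined TAC hearts and 56.4 ± 10.8 CPM per kb in wild-type TAC hearts, against 33.0 ± 2.41 CPM per kb in combined unstressed hearts and 27.6 ± 2.09 CPM per kb in wild-type unstressed hearts. In wild-type hearts Fbln1 came next, at 37.1 ± 5.85 CPM per kb after TAC and 20.9 ± 4.59 CPM per kb unstressed. Of the rest in wild-type TAC hearts, Fbn1 (29.2 CPM per kb), Fn1 (22.7), Eln (15.7) and Emilin1 (15.4) followed, and Efemp2 (5.13), Fbln5 (3.83) and Efemp1 (1.32) were low. Of the fibulins, the short elastogenic pair Efemp2 and Fbln5 was therefore far below Fbln1 and Fbln2 in level. The values below are CPM, which compare groups for 1 gene.

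**Figure D2:**
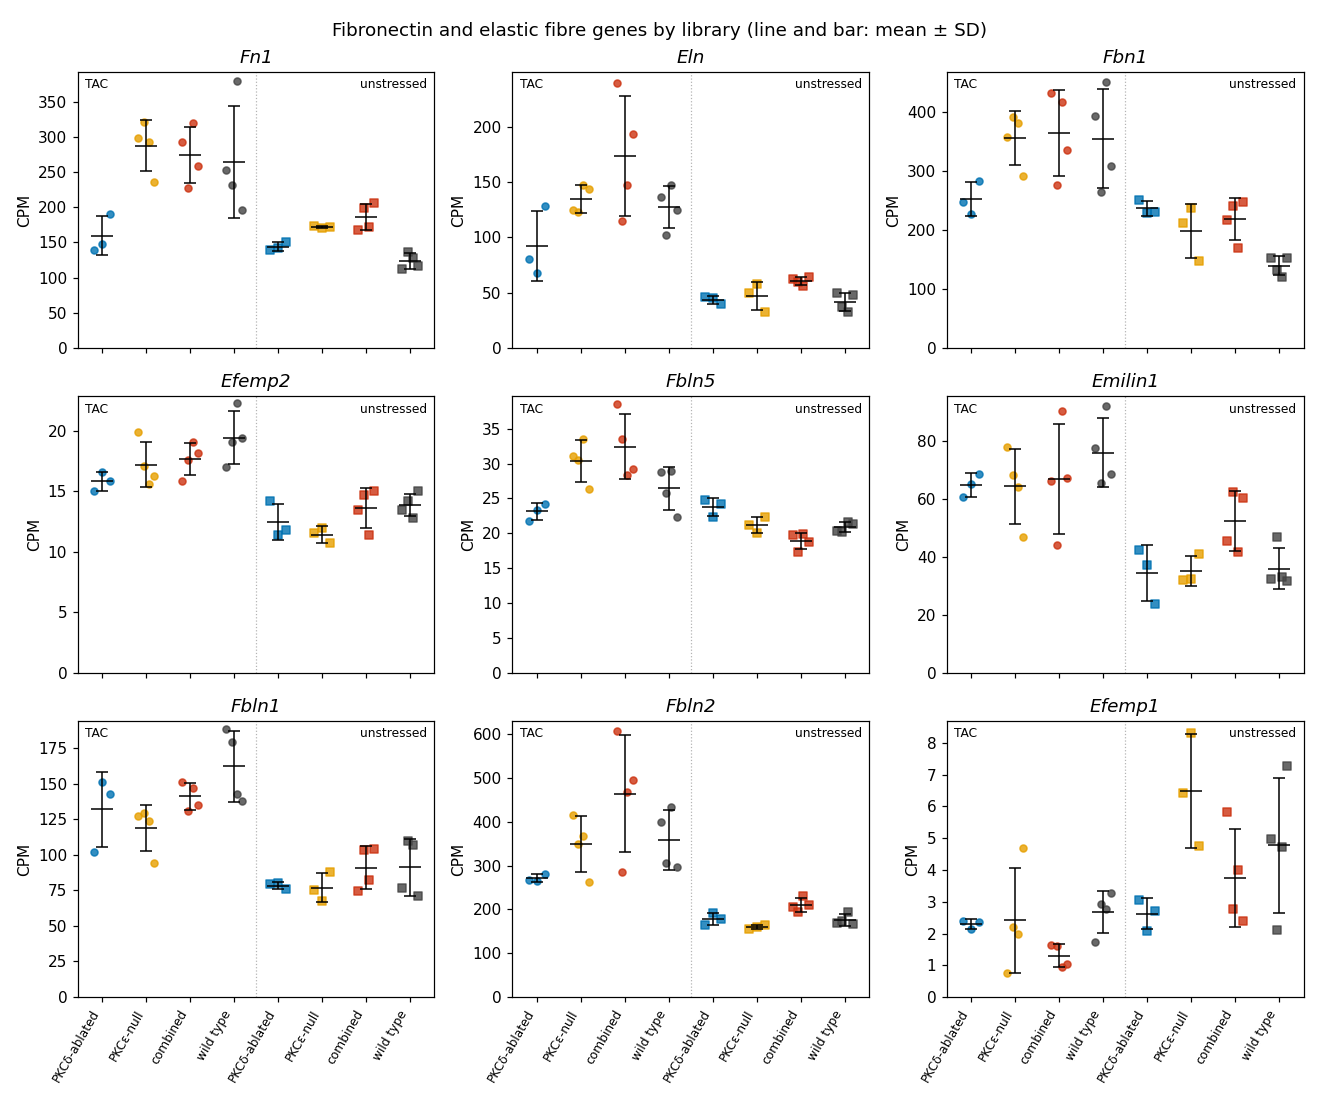
CPM of each gene in every library, TAC groups on the left and unstressed groups on the right of each panel, with the group mean and SD. Fn1 in PKCδ-ablated TAC hearts lies between 140.0 and 191 CPM, below the lowest wild-type TAC library at 196 CPM, and Eln is higher in every TAC library than in any unstressed library of the same genotype.

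Fn1 (chr1:71585473-71653280, minus strand, GRCm38) encodes fibronectin. It stood at 140.0, 148 and 191 CPM in PKCδ-ablated TAC hearts and at 139.8, 142 and 151 CPM in PKCδ-ablated unstressed hearts, and the groups overlapped. It stood at 299, 321, 293 and 236 CPM in PKCε-null TAC hearts and at 173, 170.3 and 172 CPM in PKCε-null unstressed hearts. In the combined knockout it stood at 293, 227, 319 and 258 CPM after TAC and at 168, 199, 172 and 206 CPM unstressed. Every TAC library of these last genotypes was above every unstressed one, and the same held for wild type. Wild-type hearts held 253, 232, 379 and 196 CPM after TAC and 113, 137, 128 and 116 CPM unstressed. The log2 fold change after TAC was 0.15 ± 0.17 in PKCδ-ablated hearts (SE, adjusted p = 0.56), 0.74 ± 0.16 in PKCε-null hearts (adjusted p = 0.0012), 0.56 ± 0.15 in combined hearts (adjusted p = 0.0033) and 1.10 ± 0.15 in wild-type hearts (adjusted p = 4.9e-06). By mean level the groups ran PKCε-null TAC, combined TAC, wild-type TAC, combined unstressed, PKCε-null unstressed, PKCδ-ablated TAC, PKCδ-ablated unstressed and wild-type unstressed, and each neighbour overlapped the next except the last pair. Apol7d, on the opposite strand, shares 2.5% of the annotated exon bases of Fn1.

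Fbn1 (chr2:125300594-125506485, minus strand) encodes fibrillin-1, the main structural protein of microfibrils. It stood at 248, 227 and 283 CPM in PKCδ-ablated TAC hearts and at 250.4, 229 and 230.1 CPM in PKCδ-ablated unstressed hearts. PKCε-null hearts held 358, 392, 381 and 291 CPM after TAC and 211, 237 and 147 CPM unstressed, and combined hearts held 431, 276, 416 and 335 CPM after TAC and 216, 241, 169 and 247 CPM unstressed. Wild-type hearts held 393, 265, 451 and 309 CPM after TAC and 152, 133, 119.8 and 153 CPM unstressed. Only in the PKCδ-ablated hearts, of the 4 genotypes, did the TAC and unstressed libraries overlap. The log2 fold change after TAC was 0.10 ± 0.20 in PKCδ-ablated hearts (adjusted p = 0.76), 0.84 ± 0.19 in PKCε-null hearts (adjusted p = 0.0016), 0.74 ± 0.17 in combined hearts (adjusted p = 0.0011) and 1.34 ± 0.17 in wild-type hearts (adjusted p = 3.4e-06). The order of the groups ran from combined TAC, PKCε-null TAC, wild-type TAC and PKCδ-ablated TAC through PKCδ-ablated, combined and PKCε-null unstressed to wild-type unstressed, and every neighbour overlapped the next. Gm9913, an opposite-strand gene, shares 20.1% of the annotated exon bases of Fbn1, and these libraries keep no strand, so reads of the 2 genes cannot be told apart there.

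Eln (chr5:134702595-134747368, minus strand) encodes tropoelastin, the soluble precursor of the elastic core. It stood at 80.2, 68.0 and 128 CPM in PKCδ-ablated TAC hearts, against 46.5, 45.1 and 39.5 CPM in PKCδ-ablated unstressed hearts. It stood at 125, 123, 147 and 144 CPM in PKCε-null TAC hearts, against 50.1, 58.3 and 33.0 CPM in PKCε-null unstressed hearts. Eln was higher in every TAC library than in every unstressed library of any genotype. Combined hearts held 239, 115, 147 and 193 CPM after TAC and 62.8, 59.6, 55.7 and 63.8 CPM unstressed, and wild-type hearts held 136, 102, 147 and 125 CPM after TAC and 49.5, 36.9, 32.4 and 48.2 CPM unstressed. The rise was 2.11-fold in PKCδ-ablated hearts (log2 1.08 ± 0.25, adjusted p = 0.0027), 2.87-fold in PKCε-null hearts (log2 1.52 ± 0.24, adjusted p = 7.1e-05), 2.87-fold in combined hearts (log2 1.52 ± 0.21, adjusted p = 5.3e-06) and 3.04-fold in wild-type hearts (log2 1.60 ± 0.22, adjusted p = 8.0e-06). It was the largest rise among the 9 genes in each genotype. The 4 TAC groups overlapped their neighbours in the order combined, PKCε-null, wild-type and PKCδ-ablated, and so did the 4 unstressed groups in the order combined, PKCε-null, PKCδ-ablated and wild-type. Gm30003, on the opposite strand, shares 3.3% of its exon bases.

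Efemp2 (fibulin-4; chr19:5473946-5482520, plus strand) and Fbln5 (fibulin-5; chr12:101746565-101819119, minus strand) encode short fibulins that bind tropoelastin and lysyl oxidases and are needed for elastic fibres in mice. The 250 bases before the outermost start site of each gene are shown because the pair shares this role. A difference between genotypes in the response to TAC passed the test for Fbln5 and not for Efemp2, as given below. Whether Fbln5 and Efemp2 differed from each other was not tested. The bases are from RefSeq, GRCm38.p6, written 5′ to 3′ on the gene's strand, with motif matches in capitals.
Efemp2 (chr19:5473696-5473945, plus strand): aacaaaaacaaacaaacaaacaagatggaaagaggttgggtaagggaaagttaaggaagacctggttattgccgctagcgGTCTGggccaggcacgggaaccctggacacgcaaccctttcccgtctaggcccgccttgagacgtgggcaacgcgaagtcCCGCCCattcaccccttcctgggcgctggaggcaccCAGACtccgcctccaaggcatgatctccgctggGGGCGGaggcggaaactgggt
Fbln5 (chr12:101819120-101819369, minus strand): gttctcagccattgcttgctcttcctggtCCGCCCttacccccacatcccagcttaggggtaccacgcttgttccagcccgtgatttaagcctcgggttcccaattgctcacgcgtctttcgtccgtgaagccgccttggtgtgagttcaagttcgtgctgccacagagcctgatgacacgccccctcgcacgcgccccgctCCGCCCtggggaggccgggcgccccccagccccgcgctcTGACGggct
The motifs searched, on both strands, were the GC box GGGCGG, an AP-1 site TGANTCA, the SMAD element CAGAC, the MCAT element CATTCC, the TATA box TATAAA and the core TGACG of the cyclic AMP response element, and no matches overlapped. Efemp2 held 2 GC boxes and 2 SMAD elements, and Fbln5 held 2 GC boxes and 1 TGACG. A GC box stood in 32.7% of the 32851 promoter windows of this length, an AP-1 site in 6.75%, a SMAD element in 42.2%, an MCAT element in 12.6%, a TATA box in 12.4% and TGACG in 17.8%. A match says only that these letters are in the window. The source lists 3 start sites for Efemp2 and 2 for Fbln5. The bases just after the start sites used were not found in any GENCODE transcript of either gene, so these windows may not be those of the transcripts measured.

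Efemp2 averaged 15.8 ± 0.82, 17.2 ± 1.88, 17.7 ± 1.32 and 19.5 ± 2.19 CPM in PKCδ-ablated, PKCε-null, combined and wild-type TAC hearts, against 12.5 ± 1.52, 11.4 ± 0.667, 13.7 ± 1.62 and 13.9 ± 0.952 CPM in the unstressed hearts of the same genotypes. It rose in all 4 genotypes, by a log2 fold change of 0.35 (PKCδ-ablated, adjusted p = 0.029), 0.60 (PKCε-null, adjusted p = 0.00023), 0.37 (combined, adjusted p = 0.0036) and 0.49 (wild type, adjusted p = 0.00039). Its TAC and unstressed libraries did not overlap in any genotype, the highest unstressed library of each standing below the lowest TAC one. The call in PKCδ-ablated hearts ended without any of 4 libraries (PKCδ TAC 2 or 3, PKCδ unstressed 2 or 3), with adjusted p from 0.068 to 0.12, with the sex label as a term (adjusted p = 0.0544) and with 1 library of each close pair left out (adjusted p = 0.11). Mus81, on the opposite strand, shares 4.57% of its exon bases.

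Fbln5 stood at 21.8, 23.4 and 24.2 CPM in PKCδ-ablated TAC hearts and at 24.8, 22.4 and 24.2 CPM in PKCδ-ablated unstressed hearts. PKCε-null hearts held 31.1, 30.5, 33.5 and 26.3 CPM after TAC and 21.2, 20 and 22.3 CPM unstressed. Combined hearts held 38.6, 33.5, 28.3 and 29.3 CPM after TAC and 19.7, 17.3, 19.9 and 18.7 CPM unstressed. In these last genotypes all TAC libraries were above all unstressed ones, while the PKCδ-ablated groups overlapped. Wild-type hearts held 28.8, 25.8, 28.9 and 22.4 CPM after TAC and 20.3, 20.2, 21.6 and 21.3 CPM unstressed, without overlap. The log2 fold change was -0.04 ± 0.11 in PKCδ-ablated hearts (adjusted p = 0.80), 0.52 ± 0.10 in PKCε-null hearts (adjusted p = 0.00035), 0.78 ± 0.09 in combined hearts (adjusted p = 1.2e-07) and 0.35 ± 0.09 in wild-type hearts (adjusted p = 0.0046). The mean of Fbln5 was highest in combined TAC hearts, 32.4 ± 4.68 CPM, which overlapped the PKCε-null TAC hearts, and lowest in combined unstressed hearts, 18.9 ± 1.17 CPM. Combined unstressed hearts did not overlap wild-type unstressed hearts, but the change against them was not called (log2 -0.14 ± 0.10, adjusted p = 0.28).

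Emilin1 (chr5:30913387-30921279, plus strand) encodes a glycoprotein at the border of elastin and microfibrils that also binds an integrin and restrains TGF-β processing. It stood at 60.7 to 68.7 CPM in PKCδ-ablated TAC hearts and 23.8 to 42.5 CPM in PKCδ-ablated unstressed hearts, at 47.1 to 78.2 CPM against 32.0 to 41.1 CPM in PKCε-null hearts, and at 65.5 to 92.2 CPM against 31.6 to 46.8 CPM in wild-type hearts. It rose 1.89-fold (adjusted p = 0.0069), 1.83-fold (adjusted p = 0.0062) and 2.11-fold (adjusted p = 0.00035) in these genotypes. Combined hearts held 66.3, 44.1, 90.5 and 67.2 CPM after TAC and 45.5, 62.6, 41.8 and 60.3 CPM unstressed, with a log2 fold change of 0.35 ± 0.20 (adjusted p = 0.17). The lowest of these TAC values belongs to the library labelled combined knockout, TAC, replicate 2, and without it the log2 fold change was 0.51 (adjusted p = 0.042), while without combined TAC replicate 3, the highest, it was 0.17 (adjusted p = 0.52). The call in PKCδ-ablated hearts ended without PKCδ unstressed replicate 3 (log2 0.70, adjusted p = 0.057).

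Fbln1 (chr15:85205949-85286294, plus strand) and Fbln2 (chr6:91212460-91272540, plus strand) encode the larger fibulins, which bind fibronectin and basement membrane proteins and sit on elastic fibres. Fbln1 averaged 132 ± 25.9, 119 ± 16.4, 141 ± 9.41 and 162 ± 25.6 CPM in PKCδ-ablated, PKCε-null, combined and wild-type TAC hearts, against 78.3 ± 2.31, 76.9 ± 10.5, 91.0 ± 14.9 and 91.2 ± 20 CPM in the unstressed hearts of those genotypes. It rose in all 4, by 1.68-fold (adjusted p = 0.0024), 1.54-fold (adjusted p = 0.0061), 1.55-fold (adjusted p = 0.0014) and 1.78-fold (adjusted p = 0.00015) in that order, and no TAC library of a genotype overlapped its unstressed ones. Fbln2 stood at 268, 264 and 281 CPM in PKCδ-ablated TAC hearts and 164, 193 and 178 CPM in PKCδ-ablated unstressed hearts. In combined hearts it stood at 608, 286, 469 and 495 CPM after TAC, the lowest again in the library labelled replicate 2, and at 205, 195, 231 and 210.1 CPM unstressed. It rose 1.52-fold in PKCδ-ablated hearts (adjusted p = 0.017), 2.18-fold in PKCε-null hearts (adjusted p = 6.0e-05), 2.21-fold in combined hearts (adjusted p = 3.7e-06) and 2.04-fold in wild-type hearts (adjusted p = 3.0e-05). The call in PKCδ-ablated hearts ended without PKCδ TAC 3, PKCδ unstressed 1 or PKCδ unstressed 3, with adjusted p from 0.0514 to 0.067, and with 1 library of each close pair left out (adjusted p = 0.0546).

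Efemp1 (fibulin-3; chr11:28853154-28926743, plus strand) encodes a short fibulin that is not required for elastic fibres of large vessels in mice and is known for its part in eye and fascia. It was the least abundant of the 9 genes, with 12 to 109 counts per library. It stood at 0.762, 2.22, 2 and 4.70 CPM in PKCε-null TAC hearts and at 6.41, 8.32 and 4.75 CPM in PKCε-null unstressed hearts, and at 1.64, 1.60, 0.938 and 1.05 CPM in combined TAC hearts and 5.82, 2.78, 4.01 and 2.40 CPM in combined unstressed hearts. No TAC library of either genotype reached its lowest unstressed library. Efemp1 fell in both, by 1.45 on the log2 scale in PKCε-null hearts (SE 0.39, adjusted p = 0.0063) and by 1.53 in combined hearts (SE 0.41, adjusted p = 0.0035); in a fit of the PKCε-null groups alone its adjusted p was 0.061. PKCδ-ablated hearts held 2.40, 2.13 and 2.36 CPM after TAC and 3.06, 2.09 and 2.72 CPM unstressed (log2 -0.19 ± 0.46, adjusted p = 0.79). Wild-type hearts held 1.74, 2.93, 2.78 and 3.27 CPM after TAC and 4.98, 2.10, 4.72 and 7.29 CPM unstressed (log2 -0.84 ± 0.36, adjusted p = 0.074), and both pairs of groups overlapped. Without wild-type unstressed replicate 2, the library at 2.10 CPM, the wild-type log2 fold change was -1.08 (adjusted p = 0.016), and without replicate 4, the library at 7.29 CPM, it was -0.54 (adjusted p = 0.30).

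After TAC, markers of activated fibroblasts rose in every genotype. As many general fibroblast markers were called lower as higher in PKCδ-ablated, PKCε-null and wild-type hearts. Their summed level was nonetheless higher after TAC, without overlap, in PKCδ-ablated and wild-type hearts. Of 8 activated fibroblast markers, 5 rose after TAC in PKCδ-ablated, 5 in PKCε-null, 6 in combined and 6 in wild-type hearts, and none fell. Their summed level was 421 to 561, 453 to 838, 669 to 1256 and 402 to 727 CPM in those TAC groups, against 285 to 338, 215 to 392, 244 to 398 and 265 to 306 CPM in the unstressed groups, so TAC was above unstressed in every genotype. Of 8 general fibroblast markers, 2 rose and 2 fell in PKCδ-ablated, 1 rose and 1 fell in PKCε-null, 7 rose and 0 fell in combined, and 1 rose and 1 fell in wild-type hearts. Their summed level was 2272 to 2619.6, 2080.0 to 2997, 2468 to 3122 and 2460.2 to 3141 CPM in those TAC groups. In the unstressed groups it was 1833 to 1999.7, 1909 to 2214, 1569 to 1708 and 2091 to 2191 CPM, with overlap in PKCε-null hearts only. Of 6 smooth muscle markers, 1 rose and 1 fell in each genotype other than the combined knockout, where 2 rose and 2 fell. Of 6 macrophage markers, 2 rose in PKCδ-ablated, 2 in PKCε-null and 5 in wild-type hearts, and 1 fell in combined hearts. Of 8 cardiomyocyte markers, 2 fell in PKCδ-ablated, 4 in PKCε-null, 4 in combined and 3 in wild-type hearts, and 1 rose in wild type. Their summed level was 85685 to 108455 CPM in TAC and 95011 to 112761 CPM in unstressed libraries. Of 6 mesothelial markers 3 were tested, and 1 rose in the combined knockout. Of 6 skeletal muscle markers, 1 rose and 1 fell in PKCδ-ablated, 1 rose in PKCε-null, 3 rose and 1 fell in combined, and 4 rose and 1 fell in wild-type hearts. Their summed level was 106 to 131, 101 to 126, 97.3 to 235 and 105 to 195 CPM in those TAC groups, against 54.8 to 57.8, 44.9 to 80.9, 54 to 92.6 and 42.6 to 53.7 CPM in the unstressed groups, without overlap in any genotype. Of 5 erythroid markers 2 were tested, and 1 rose in PKCε-null and 2 in combined hearts. Their summed level was 11.9 to 47.8 CPM in TAC and 8.34 to 19.8 CPM in unstressed libraries, with Hbb-b1, Hba-a1 and Hba-a2 at 0 in every library. Of 4 liver markers 1 was tested, and it rose in PKCε-null, combined and wild-type hearts; their summed level was 2.8 CPM or below in every library, with Alb at 0 in all. The part of cell composition in the changes of the 9 genes was not tested.

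The next comparison asks whether ablation alone altered the genes in unstressed hearts. Fbn1 was higher in PKCδ-ablated hearts, averaging 237 ± 12.1 CPM against 139 ± 16.0 CPM in wild-type hearts (1.69-fold, log2 0.76 ± 0.18, adjusted p = 0.017), and every PKCδ-ablated library lay above every wild-type one. It was the single call among the 9 genes there, where 5.37% of all tested genes were called and 2.64% were higher, and it ended without PKCδ unstressed 1 or 3 (adjusted p = 0.076 and 0.060). In combined hearts Fn1 averaged 186 ± 19.2 CPM against 124 ± 11.2 CPM in wild-type hearts (1.51-fold, adjusted p = 0.0040) and Fbn1 218 ± 35.7 CPM against 139 ± 16.0 CPM (1.56-fold, adjusted p = 0.0066). These 2 of 9 genes stand beside 29.2% of all tested genes called in that comparison and 15.3% called higher. The combined and wild-type libraries did not overlap for 4 of the 9 (Fn1, Eln, Fbn1 and Fbln5), against 29.5% of all tested genes. Eln and Emilin1 of combined hearts stood at a log2 fold change of 0.53 (adjusted p = 0.070) and 0.55 (adjusted p = 0.0526). With the library labelled combined knockout, TAC, replicate 2 and wild-type TAC replicate 2 left out of the fit, both passed (adjusted p = 0.045 and 0.034), and Emilin1 also passed without wild-type unstressed 2 or combined unstressed 3. With 1 library of each close pair left out, Fn1 missed the threshold in combined hearts (log2 0.50, adjusted p = 0.058).

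In PKCε-null unstressed hearts edgeR called 0 of the 9 genes, with 3 at an unadjusted p below 0.05, and 3.00% of all tested genes were called; DESeq2 also called 0 of the 9. The groups did not overlap for Fn1, Efemp2 and Fbln2, against 15.5% of all tested genes. Fn1 stood at 173, 170.3 and 172 CPM in these hearts, all above the wild-type libraries at 113 to 137 CPM, with a log2 fold change of 0.47 ± 0.16 (adjusted p = 0.11). Fbn1 stood 0.51 ± 0.18 higher on the log2 scale (adjusted p = 0.15). A fit of the PKCε-null and wild-type unstressed groups alone called Fn1 (log2 0.48, adjusted p = 0.0020), and leaving out PKCε unstressed 3 called Fbn1 (log2 0.68, adjusted p = 0.0453), while without PKCε unstressed 2 it stood at 0.36 (adjusted p = 0.48). Beside these results, 5 of 8 fibroblast markers and 4 of 6 endothelial markers were lower in combined than in wild-type unstressed hearts, while Fn1 and Fbn1 were higher there. Of 6 macrophage markers 2 were higher and 0 lower, of 6 smooth muscle markers 2 were higher and 3 lower, and of 8 cardiomyocyte markers 1 was higher and 1 lower. In that comparison 29.2% of all tested genes were called, and 15.3% were called higher. The summed fibroblast markers were 1569 to 1708 CPM in the combined and 2091 to 2191 CPM in the wild-type libraries. Activated fibroblast markers had a median log2 fold change of 0.50 in the same comparison, with none called. The part of cell composition in the values of Fn1 and Fbn1 was not tested.

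Among TAC hearts, comparison with wild type gave a single call over the 9 genes, that of Fbln5 in combined hearts. In PKCδ-ablated TAC hearts all 9 genes had negative log2 fold changes against wild-type TAC hearts, from -0.73 (Fn1) to -0.20 (Fbln5), with a median of -0.30 against -0.01 over all genes. edgeR called 0 of the 9 genes and 0.00% of all genes in this comparison, with 4 of the 9 and 789 of all genes at an unadjusted p below 0.05. DESeq2 called 1 gene of all, and it was Fn1 (log2 -0.73, adjusted p = 0.036, against 0.55 in edgeR). The libraries of the 2 groups did not overlap for Fn1, Efemp2 and Fbln2, against 9.22% of all tested genes. The summed fibroblast markers were 2272 to 2619.6 CPM in these PKCδ-ablated and 2460.2 to 3141 CPM in the wild-type libraries, and the activated fibroblast markers had a median log2 fold change of -0.59 with none called, and the part of fibroblast number or state in the values of the 9 genes was not tested.

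In PKCε-null TAC hearts edgeR called 0 of the 9 genes against wild type, with 2 at an unadjusted p below 0.05, beside 0.0436% of all genes; DESeq2 also called 0. Fbln1 was the 1 gene of the 9 without overlap, against 6.80% of all tested genes, at 94.4 to 129 CPM in PKCε-null and 138 to 188 CPM in wild-type TAC hearts (log2 -0.45 ± 0.15, adjusted p = 0.25). In combined TAC hearts Fbln5 averaged 32.4 ± 4.68 CPM against 26.5 ± 3.12 CPM in wild-type TAC hearts (1.22-fold, log2 0.29 ± 0.09, adjusted p = 0.0494), the single call among the 9, beside 6.76% of all genes called and 4.22% called higher. The 2 groups overlapped, and the call was at the threshold: it ended under 7 of 9 other settings (adjusted p from 0.0505 to 0.26) and without any of 6 of the 8 libraries (adjusted p from 0.0504 to 0.27). Efemp1 stood at 0.938 to 1.64 CPM in combined and 1.74 to 3.27 CPM in wild-type TAC hearts, the 1 gene of the 9 without overlap against 9.45% of all tested genes (log2 -1.05 ± 0.42, adjusted p = 0.12). Fbln2 stood 0.37 higher on the log2 scale in the combined hearts (adjusted p = 0.15) and 0.54 higher (adjusted p = 0.0088) without the library labelled combined knockout, TAC, replicate 2, while without combined TAC replicate 1 it stood 0.21 higher (adjusted p = 0.52).

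**Figure D3:**
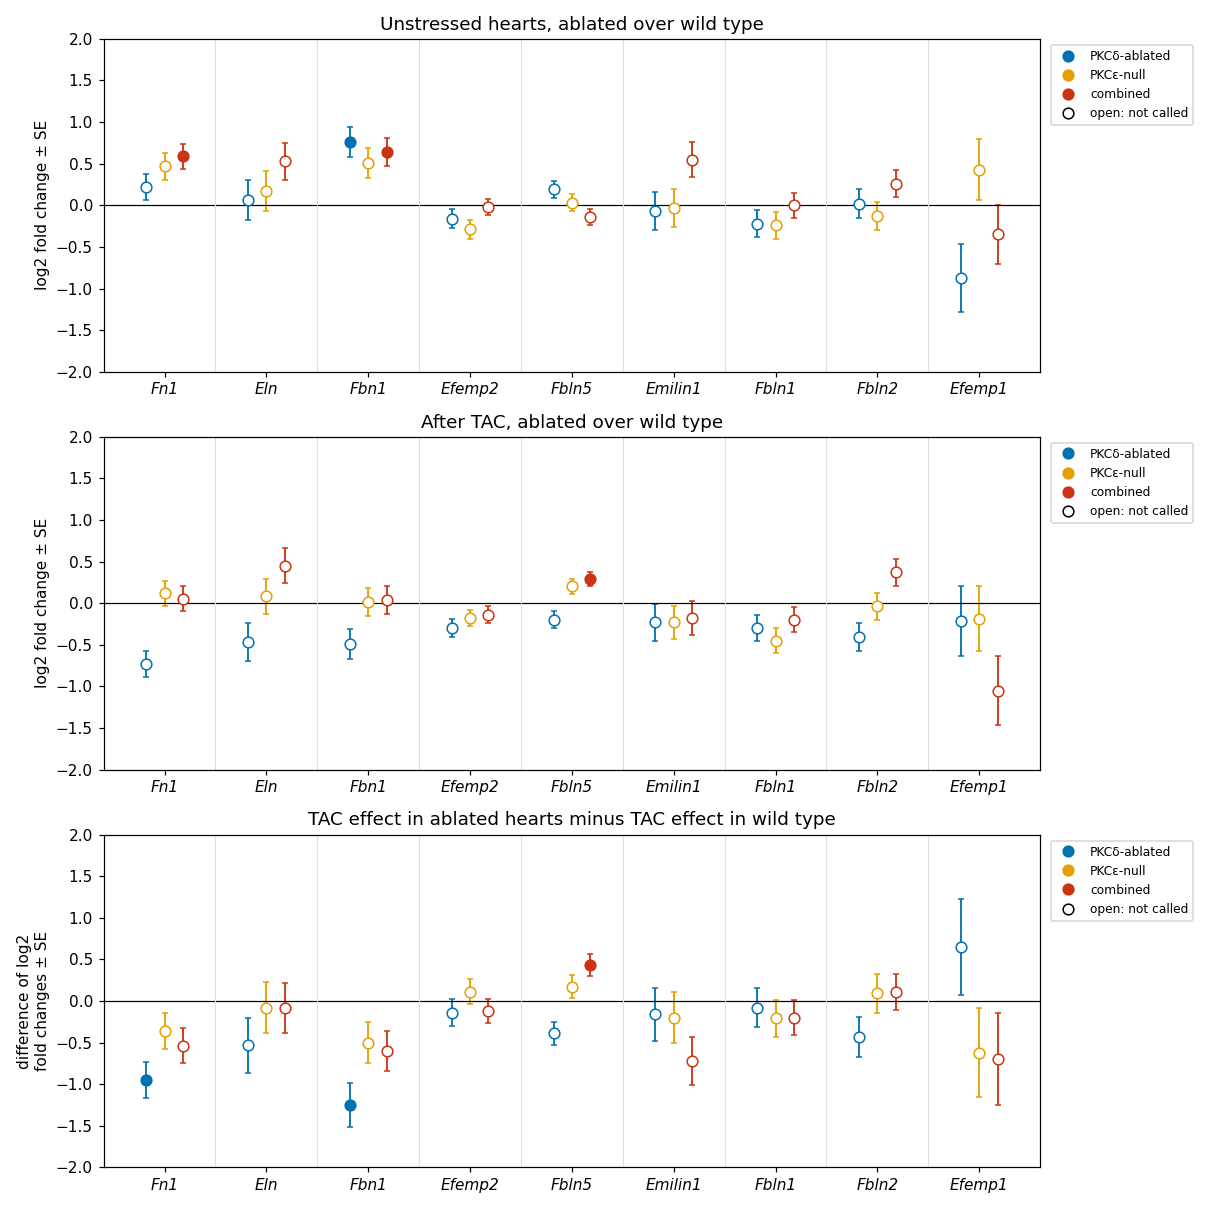
Log2 fold changes with SE of each ablated genotype over wild type in unstressed hearts (top) and after TAC (middle), and the TAC effect in the ablated genotype minus that in wild type (bottom). Filled points are called. In the bottom panel Fn1 (-0.95) and Fbn1 (-1.25) of PKCδ-ablated hearts and Fbln5 (0.43) of combined hearts are filled.

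Whether the response to TAC itself differed was tested as the log2 fold change of TAC in an ablated genotype minus that in wild type. In PKCδ-ablated hearts the response was smaller for Fbn1, by -1.25 ± 0.26 (adjusted p = 0.013), and for Fn1, by -0.95 ± 0.22 (adjusted p = 0.031), beside 1.27% of all genes called and 0.814% called in this direction. The median over the 9 genes was -0.39, against 0.00 over all genes, and Fbln5 (-0.39, adjusted p = 0.20), Fbln2 (-0.43, adjusted p = 0.46) and Eln (-0.53, adjusted p = 0.52) did not pass. In the same comparison activated fibroblast markers had a median of -0.70 and general fibroblast markers one of -0.03, with none called. The related lists below had medians of -0.49 (microfibrils and elastic fibres), -0.59 (crosslinking), -0.12 (fibronectin receptors) and -0.25 (elastin receptor and elastolysis). The part of fibroblast number or state in the PKCδ-ablated differences was not tested. For Fbn1 the unstressed level of PKCδ-ablated hearts (237 ± 12.1 CPM) was above that of wild-type hearts (139 ± 16.0 CPM), and the TAC level (253 ± 28.5 CPM) was below it (355 ± 83.5 CPM). For Fn1 the levels were 144 ± 5.96 CPM against 124 ± 11.2 CPM unstressed, and 159.8 ± 27.5 CPM against 265 ± 79.4 CPM after TAC. The Fn1 call ended without any of 8 of the 14 libraries (adjusted p from 0.0509 to 0.13), among them all 3 PKCδ unstressed libraries, PKCδ TAC 1 or 2, wild-type TAC 1 and wild-type unstressed 1 or 4. It also ended with no filter (adjusted p = 0.060), with the sex label as a term (adjusted p = 0.086) and in a fit of only the groups compared (adjusted p = 0.092). The Fbn1 call ended without PKCδ TAC 1 or 2 (adjusted p = 0.0548 and 0.0521), which are a close pair, and both calls ended with 1 library of each close pair left out (Fn1 -0.87, adjusted p = 0.21; Fbn1 -1.23, adjusted p = 0.089).

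In combined hearts the response of Fbln5 to TAC was larger than in wild type, by 0.43 ± 0.13 (adjusted p = 0.016), beside 25.1% of all genes called and 12.6% in this direction. That of Emilin1 was -0.72 ± 0.29 (adjusted p = 0.070), of Fbn1 -0.60 ± 0.24 (adjusted p = 0.066) and of Fn1 -0.54 ± 0.21 (adjusted p = 0.056), none of them past the threshold in this fit, and DESeq2 called all 3 (adjusted p = 0.031, 0.033 and 0.032). Without the library labelled combined knockout, TAC, replicate 2 and wild-type TAC replicate 2 together, the Fbln5 difference was 0.39 (adjusted p = 0.056), and with 1 library of each close pair left out it was 0.42 (adjusted p = 0.056). In PKCε-null hearts edgeR called 0 of the 9 differences, with 0 at an unadjusted p below 0.05, and DESeq2 called 0, beside 0.0363% of all genes called by edgeR. Its differences ran from -0.62 (Efemp1) to 0.17 (Fbln5). After TAC, 3 of the 6 endothelial and 7 of the 8 fibroblast markers rose in combined hearts, where 22.0% of all tested genes were called higher. For the combined difference, 2 of the 8 fibroblast and 3 of the 6 endothelial markers were called higher and 0 lower. The median differences of these lists were 0.38 and 0.26. Of 6 macrophage markers 4 were called lower and 0 higher, with a median of -0.55. Dcn (decorin, a fibroblast proteoglycan), named after its value was seen, had a difference of 0.91 (adjusted p = 0.00084), beside the 0.43 of Fbln5. The part of cell composition in the Fbln5 result was not tested.

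Other genes of the same pathway gave a wider view of the response. Of 21 further genes of microfibrils and elastic fibres 19 were tested, and 11 rose and 5 fell after TAC in PKCδ-ablated, 12 and 3 in PKCε-null, 12 and 3 in combined, and 12 and 2 in wild-type hearts, with median log2 fold changes of 0.51, 0.78, 0.52 and 0.63. Over all tested genes 26.9%, 28.9%, 43.8% and 35.7% were called in these genotypes. The shares called higher were 12.9%, 14.5%, 22.0% and 17.8%, and those called lower were 14.0%, 14.3%, 21.8% and 17.9%. This and the next lists are to be read against these shares. Ltbp2, a latent TGF-β binding protein homologue of microfibrils, averaged 40.6 ± 19.9 CPM in PKCδ-ablated, 70.7 ± 32.0 CPM in PKCε-null, 134 ± 69.1 CPM in combined and 76.0 ± 24.2 CPM in wild-type TAC hearts, against 3.05 to 5.48 CPM on average in the unstressed groups. Its log2 fold change was 3.73, 4.18, 4.60 and 4.26 in that order (adjusted p of 4.1e-05 or below). Adamtsl2, a glycoprotein that binds LTBP and fibrillin, rose by a log2 fold change of 1.49, 2.95, 2.30 and 2.13, and Mfap5, a microfibril-associated glycoprotein, by 0.86, 2.06, 2.40 and 1.68, all called.

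Fbn2, the fibrillin made mainly in the embryo, was chosen for mention after its values were seen. It fell by 1.09 on the log2 scale after TAC in PKCδ-ablated hearts and rose by 1.68 in wild-type hearts, and the difference of -2.77 ± 0.54 passed the test (adjusted p = 0.0089). In unstressed hearts it was higher in PKCδ-ablated than in wild-type hearts (log2 2.08, adjusted p = 0.0026). The other 2 of these 19 genes with a called difference in PKCδ-ablated hearts were Thsd4 and Hmcn1, and both differences were negative. Thsd4 is a microfibril-binding ADAMTS-like protein (difference -1.05, adjusted p = 0.025), and Hmcn1 is hemicentin-1 (difference -0.63, adjusted p = 0.012). Calls of list genes, here and elsewhere, rest on the fit of all 29 libraries and were not checked under other settings. With a library of each close pair left out, called PKCδ-ablated differences over all genes numbered 33 against 175. The Fn1 and Fbn1 calls ended there, and whether those of Fbn2, Thsd4 and Hmcn1 would stand was not tested. In the combined knockout Fbn2 (-2.05), Thsd4 (-1.14), Emilin2 (-1.16) and Fbln7 (-1.60) had a called negative difference in response from wild type and Mmrn2 (0.34) a positive one, with adjusted p from 0.00057 to 0.020. These 5 of 19 genes are close to the 25.1% of all tested genes called in that comparison.

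Of 7 crosslinking enzymes, 2 rose after TAC in PKCδ-ablated, 6 in PKCε-null, 5 in combined and 5 in wild-type hearts, and none fell, with medians of 0.43, 1.26, 0.94 and 1.11. Loxl1, a lysyl oxidase of elastic fibres, rose by a log2 fold change of 1.04, 1.25, 0.96 and 1.63 in that order, and Loxl3, a lysyl oxidase of fibronectin and collagen, by 0.78, 1.26, 1.92 and 1.11. Loxl2 stood at 0.10 in PKCδ-ablated hearts (67.6 CPM after TAC against 63.2 CPM unstressed, adjusted p = 0.77) and rose in PKCε-null (0.98, adjusted p = 0.00075), combined (0.94, adjusted p = 0.00017) and wild-type hearts (adjusted p = 0.00015). The difference of its response between PKCδ-ablated and wild-type hearts was -0.91 (adjusted p = 0.11). Of 19 fibronectin receptors and assembly genes, 4 rose and 3 fell in PKCδ-ablated, 7 and 1 in PKCε-null, 9 and 0 in combined, and 6 and 2 in wild-type hearts. The medians were 0.01, 0.41, 0.45 and 0.13. In each genotype the rises were a larger part of the list than of all tested genes. The falls were a smaller part of it than of all tested genes, except in PKCδ-ablated hearts. The list as a whole was not tested. Itgb5, an integrin chain, rose by 0.39, 0.54, 0.68 and 0.63, and Tln1, the talin that ties integrins to actin, by 0.39, 0.41, 0.27 and 0.47. Fbln7, a fibulin that binds cells and fibronectin, rose by 1.42, 1.72 and 2.12 in PKCδ-ablated, PKCε-null and wild-type hearts and stood at 0.52 in combined hearts (adjusted p = 0.21), at mean levels of 2.20 CPM or below. Sdc4, a syndecan that binds fibronectin, fell by 1.49 after TAC in PKCδ-ablated hearts, and its response differed from that of wild type by -1.48 (adjusted p = 0.019), the single called difference of this list there, named after its value was seen.

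Of 14 genes of the elastin receptor and of elastolysis 12 were tested, and 3 rose and 1 fell in PKCδ-ablated, 6 and 0 in PKCε-null, 7 and 0 in combined, and 5 and 1 in wild-type hearts. Mmp2 and Mmp14, a gelatinase and the membrane protease that activates it, rose in every genotype, Mmp2 by 0.45, 0.74, 1.07 and 0.76 and Mmp14 by 0.75, 0.73, 0.97 and 1.22 on the log2 scale. Timp1, an inhibitor of such proteases, rose by 1.77, 2.58, 2.21 and 2.96. The medians of the 12 were 0.12, 0.31, 0.34 and 0.33. Fbln7 and Tgm2 each stand in 2 of these lists.

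**Figure D4:**
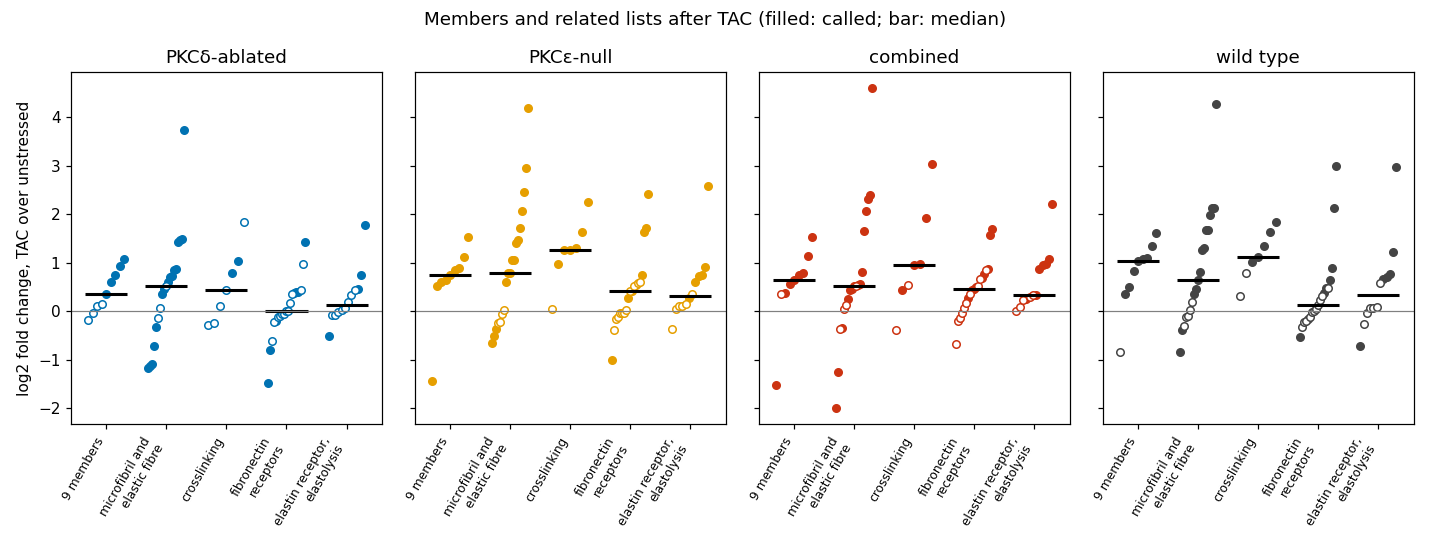
Log2 fold change of TAC over unstressed for each tested gene of the 9 members and of the 4 related lists, in a panel per genotype, with bars at the medians and filled points for called genes. The bar of the 9 members stands at 0.35 in PKCδ-ablated and 1.03 in wild-type hearts, and the highest point in each panel is Ltbp2.

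The 9 genes fell into patterns that differed in likeness over the 8 group means, measured as the root mean square difference of log2 CPM after each gene was centred on its own mean, which is a description with no test. Among the members, Efemp2 and Fbln1 were the closest pair at 0.155, followed by Emilin1 and Fbln1 at 0.161, Efemp2 and Fbln5 at 0.189 and Fn1 and Fbn1 at 0.197. Efemp1 was the furthest from all others, at 0.830 to 1.32. Over the 10246 more abundant genes (mean log2 CPM of 2 or more), the pattern of Eln was most like those of Col1a1 (0.107), the main chain of type I collagen, Svep1 (0.123) and Col16a1 (0.127). That of Fbn1 was most like those of Srpx2 (0.0931), Loxl2 (0.119) and Col6a2 (0.135), and that of Fn1 most like those of Pcolce2 (0.155), a procollagen proteinase enhancer, Lhfpl2 (0.164) and Vamp5 (0.169). The nearest were Zyx (0.0513) to Efemp2, Gpm6b (0.0615) to Fbln5, Cygb (0.0702) to Fbln1, Tspo (0.0788) to Fbln2 and Art5 (0.235) to Efemp1.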

How the data were processed

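The authors deposited raw counts of reads for each gene symbol. The submitters' processing notes name TopHat2 2.0.10, Bowtie2, HTSeq and the build mm10; the annotation is not given in the sources used here. Libraries were non-strand-specific and single-end, per the labels. The 5 rows of reads outside genes were left out of library sizes; reads on more than 1 gene were 0.776% to 0.942% and those at more than 1 place 8.01% to 14.2%. The series table held the same values as the library files for all 23391 shared names.

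All 29 libraries entered edgeR 4.0.16's quasi-likelihood test (limma 3.58.1, R 4.3.3; robust, TMM, 8 group means, 21 residual degrees of freedom) over 13765 genes, with Benjamini-Hochberg adjustment at 0.05 within each of 13 comparisons. Ablation and interaction comparisons share wild-type libraries. p-values measure the spread between libraries, which the labels do not tie to animals. The test was checked on simulated data. Named list genes are up to 3 per list with the smallest adjusted p for TAC in wild type. List genes named for a called difference of TAC effects, and Timp3 and Tgm2, were instead chosen by their values. Single-gene values of the alternatives below were kept for the 9 members only, so calls of list genes rest on the fit of all 29 libraries. Alternatives were RLE normalization, no filter, the sex label as a term, a replicate block, DESeq2 1.42.0, only the groups compared, Rn45s left out, the 2 libraries with doubtful Prkce left out, each library left out and, added after seeing the data, 1 library of each of 4 close pairs left out. Replicate numbers do not pair the samples in the labels. Members and lists were chosen with earlier results of these data known. Coordinates are RefSeq's (GRCm38.p6), exon lengths and overlaps GENCODE vM21's. Promoters of 7 of the 9 genes were in the table used; those of Fn1 and Eln are named only. Figures: matplotlib 3.10.9, Python 3.11.15.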

Additional observations from a re-analysis of the deposited data

Results flagged for a closer look

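The response to TAC of 3 genes was flagged because the effect of TAC in an ablated genotype differed from that in wild type by a test of the difference. Fibrillin-1 (Fbn1) and fibronectin (Fn1) responded less in PKCδ-ablated hearts, with differences of -1.25 and -0.95 on the log2 scale, where the TAC effect in PKCδ-ablated hearts was 0.10 and 0.15. Fibulin-5 (Fbln5) responded more in combined hearts, with a difference of 0.43. Of all tested genes 1.27% were called for the PKCδ-ablated difference. For the combined difference 25.1% were called and 12.6% were called higher, so 1 call among the 9 genes is not above that share. Neither call in PKCδ-ablated hearts stood with 1 library of each close pair left out, and the Fbln5 call did not stand there or without the library labelled combined knockout, TAC, replicate 2 and wild-type TAC replicate 2.

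In 2 groups a single library stood apart from the rest by Dixon's criterion. Emilin1 stood at 46.8 CPM in wild-type unstressed replicate 2, above 31.6 to 33.2 CPM in the other 3 of its group, and Fbln1 stood at 94.4 CPM in PKCε-null TAC replicate 4, below 124 to 129 CPM in the others. Over 45 groups of values examined in this way, chance alone flags about 1 in 20.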

How the results depend on the processing

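Over 83 results, 747 values under other settings and 739 with a library left out were computed; 711 and 695 kept their direction and their side of the threshold, 19 and 26 lost a call, 16 and 17 gained one and 1 in each changed sign. RLE normalization ended the Fbln5 call in combined TAC hearts alone. The signs that changed were those of Efemp1 in combined against wild-type unstressed hearts (0.10 with 1 library of each close pair left out) and of Fn1 in PKCδ-ablated TAC against unstressed hearts (0.00 without PKCδ TAC replicate 3; 0.00 to 0.23 over libraries left out), neither called. The causes were not tested.

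With 1 library of each close pair left out, the number of the 9 genes called was 3 for TAC in PKCδ-ablated hearts, 1 for combined against wild-type unstressed and 0 for combined against wild-type TAC hearts and for the TAC differences of PKCδ-ablated and combined hearts. In a fit of only the groups compared it was 1 for PKCε-null and 5 for combined unstressed, 0 for combined TAC hearts and 1 for the PKCδ-ablated difference. DESeq2 called 4 in combined unstressed, 1 in PKCδ-ablated TAC hearts and 4 combined differences. Without both doubted libraries 4 were called in combined unstressed hearts and 0 combined differences. RLE normalization, no filter, the sex term and leaving out Rn45s each gave 0 in combined TAC hearts, and no filter and the sex term each gave 1 PKCδ-ablated difference.

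With each library left out in turn, the number of the 9 genes called ranged from 2 to 5 (TAC in PKCδ-ablated hearts), 9 to 9 (in PKCε-null), 8 to 9 (in combined) and 8 to 9 (in wild type), 0 to 1, 0 to 1 and 2 to 3 (PKCδ-ablated, PKCε-null and combined unstressed hearts), 0 to 0, 0 to 0 and 0 to 1 (the same after TAC), and 0 to 2, 0 to 0 and 1 to 4 (their TAC differences).

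The labels do not say whether replicate numbers pair the samples. Deviations of same-numbered libraries from their group means correlated between -0.134 and 0.181, and with so few libraries per group this cannot settle whether they were paired. The replicate block called 2 combined differences (Fn1 added) and 10 genes of all against 5 for the PKCε-null difference.

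Among counts over all genes, those that moved by over 1.5 times with 1 library of each close pair left out were 287 against 739 (PKCδ-ablated unstressed), 60 against 413 (PKCε-null unstressed), 2590 against 4023 (combined unstressed), 1 against 6 (PKCε-null TAC), 512 against 930 (combined TAC), 33 against 175 (PKCδ-ablated difference) and 0 against 5 (PKCε-null difference). Combined TAC hearts gave 122 with the sex term and 2 in a fit of those groups alone. DESeq2 gave 1, 60, 307 and 52 genes for PKCδ-ablated TAC, PKCε-null TAC, the PKCδ-ablated and the PKCε-null difference, a fit of the groups alone 2 for PKCε-null TAC and 515 for the PKCδ-ablated difference, and leaving out both doubted libraries 24 for PKCε-null TAC and 8 for its difference. Depth limits Efemp1 most, at 12 to 109 counts per library.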

Other observations

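Among the genes of the related lists that were called lower in unstressed ablated hearts, Timp3 and Tgm2 were chosen for mention after their values were seen. Timp3, an inhibitor of metalloproteinases that is bound to the matrix, was lower in unstressed hearts of all 3 ablated genotypes than in wild type, by a log2 fold change of -1.0 in PKCδ-ablated hearts (adjusted p = 0.0093), -0.87 in PKCε-null hearts (adjusted p = 0.025) and -1.05 in combined hearts (adjusted p = 0.00037). After TAC it rose by 0.94 in combined hearts and fell by 0.72 in wild-type hearts, and that difference of 1.66 passed edgeR's test (adjusted p = 0.0002). Tgm2, the transglutaminase that crosslinks fibronectin, was lower in PKCε-null than in wild-type unstressed hearts, with a log2 fold change of -1.91 (adjusted p = 1.2e-07), and its TAC effect was 1.33 larger in PKCε-null hearts than in wild type (adjusted p = 0.0076).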
